A study of Caenorhabditis elegans with 6 samples.

Results

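The proteasome subunit genes of the nematode *Caenorhabditis elegans* were examined by RNA-seq in controls and after JM03, a derivative of crotamiton according to the series title. They were taken as the rows of the deposited table whose gene symbol begins with pas, pbs, rpt or rpn, a hyphen and a digit. This gave 33 of the 46778 genes in the table, namely 14 genes of the core particle (7 pas and 7 pbs) and 19 of the regulatory particle (6 rpt and 13 rpn). All 33 carried the same symbol in the reference name table, and all 33 passed the filter of at least 1 TPM in at least 3 libraries. TPM is a share of transcripts scaled by transcript length, so levels can be compared between genes.

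The proteasome is the large protease that degrades proteins tagged with ubiquitin. Its core particle is a stack of rings: the outer rings are built of alpha subunits (the *pas* genes), which gate entry, and the inner rings of beta subunits (the *pbs* genes), some of which carry the proteolytic sites. The regulatory particle caps the core. Its ATPases (the *rpt* genes) unfold substrates and its non-ATPase subunits (the *rpn* genes) bind ubiquitin, remove it and hold the assembly together. In *C. elegans* the SKN-1A form of the transcription factor SKN-1 raises proteasome gene expression when the proteasome is impaired, and raised *rpn-6.1* has been tied to survival under proteotoxic stress.

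The 6 libraries were made from total RNA, 3 from control animals and 3 from animals given JM03. The sources used here give no strain, stage, dose or exposure time. They also do not say whether replicates were separate cultures, so p-values measure the spread between these libraries, which may be technical. Read depth cannot be had from TPM and is unknown. In whole animals, a lower level cannot be told apart from fewer cells that express the gene.

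The third control library stood apart. It had 4.37% of its TPM on ribosomal RNA, against 0.338% to 0.639% in the others, and 16560 genes above 0, against 18049 to 18208. The labels set a minimum RNA integrity for all libraries and give no value per library. Over the 33 proteasome genes its Spearman correlation with another library was 0.567 to 0.626, while the other 5 libraries correlated with each other at 0.902 to 0.991. Over all genes that passed the filter these ranges were closer, at 0.7845 to 0.866 and 0.901 to 0.978. The points of these correlations are genes measured in the same libraries and are not independent. Results are therefore given with it and without it.

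Proteasome transcripts were abundant and even. With control replicate 3 set aside, 31 of the 33 genes were above 100 TPM in every library, the exceptions being *rpn-1* and *rpn-6.2*. Within 1 gene the highest of the 5 values was 1.05 to 1.74 times the lowest. On the log2(TPM + 1) scale the median range of a proteasome gene over these libraries was 0.18, against 0.53 for all 12912 tested genes. The tested genes include ones near 1 TPM and were not matched to the proteasome genes by level. The part of level in this difference was therefore not tested.

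**Figure D1:**
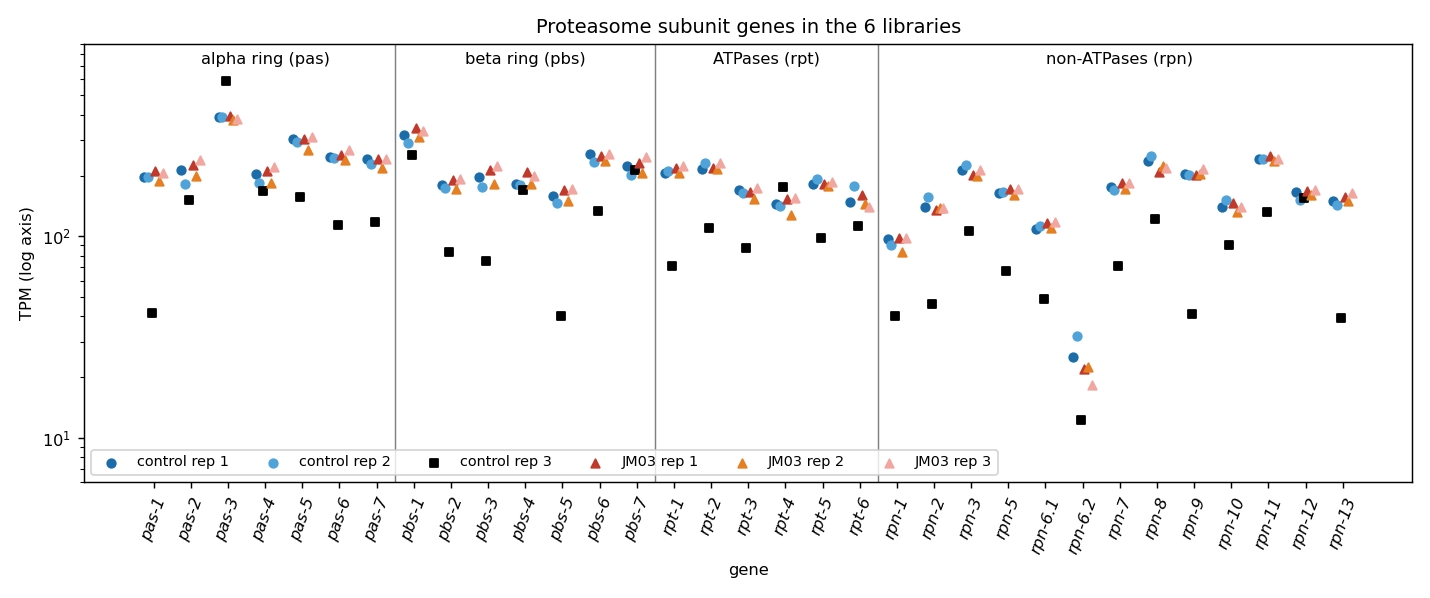
TPM (log axis) of each of the 33 proteasome genes in each of the 6 libraries, grouped by subunit class, with 1 point for a library. The 5 libraries other than control replicate 3 lie close together for most genes, *rpn-6.2* lies far below the rest, and control replicate 3 (black squares) lies below the others for 29 of the 33 genes.

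Among the alpha ring genes, *pas-3* had the highest level of all 33 genes. Its values were 393, 393 and 590 TPM across controls and 397, 379 and 382 TPM under JM03, in the order of replicates 1, 2 and 3 as throughout. The JM03 values lay on both sides of the first pair of controls and below control replicate 3. The alpha ring gene with the lowest mean over the 6 libraries was *pas-1*, at 198, 197 and 41.6 TPM across controls and 211, 189 and 207 TPM under JM03. Apart from control replicate 3 its groups overlapped. The other 5 alpha genes averaged 200.2 to 295 TPM over the 5 libraries.

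The 3 beta subunits with proteolytic sites are *pbs-1* (caspase-like), *pbs-2* (trypsin-like) and *pbs-5* (chymotrypsin-like). *pbs-1* had 319, 291 and 253 TPM across controls and 346, 312 and 334 TPM under JM03. *pbs-2* had 181, 173 and 83.4 TPM across controls and 191, 172 and 193 TPM under JM03. *pbs-5*, the lowest beta gene, had 159, 146 and 40.2 TPM across controls and 170.1, 149 and 172 TPM under JM03. In each of the 3, JM03 replicate 2 lay within the range of the controls, so the groups overlapped. The non-catalytic *pbs-7* had 223, 201 and 214 TPM across controls and 232, 206 and 247 TPM under JM03, also overlapping.

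The 6 ATPase genes lay close together in level, with means of 144 to 223 TPM over the 5 libraries. *rpt-2* had 217, 232 and 110.3 TPM across controls and 217, 217 and 231 TPM under JM03. *rpt-1* had 207, 211 and 71.5 TPM across controls and 219, 205 and 222 TPM under JM03. For both genes the JM03 values were at the level of control replicates 1 and 2. *rpt-6* had 148, 178 and 113 TPM across controls and 160.2, 145 and 140.3 TPM under JM03. *rpt-4* had 144, 142 and 176 TPM across controls and 152, 128 and 156 TPM under JM03. The groups overlapped in both. In *rpt-4*, as in *pas-3*, control replicate 3 was the highest of the 6 libraries.

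Among the non-ATPase genes *rpn-11*, which encodes the deubiquitinating subunit, had the highest mean, at 241, 242 and 132 TPM across controls and 250.2, 236 and 242 TPM under JM03. The ubiquitin receptor gene *rpn-10* had 139.9, 152 and 90.5 TPM across controls and 146, 131 and 140.1 TPM under JM03. The large scaffold gene *rpn-1* had 97.2, 90.0 and 40.2 TPM across controls and 98.4, 83.9 and 98.2 TPM under JM03. The lid gene *rpn-9* had 203, 202 and 41.0 TPM across controls and 201, 203 and 217 TPM under JM03. In all 4 genes the JM03 values overlapped control replicates 1 and 2.

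The paralogs *rpn-6.1* and *rpn-6.2* differed in level in every library. RPN-6 is a lid subunit that helps hold the core and regulatory particles together. *rpn-6.1* had 108, 112 and 48.7 TPM across controls and 116, 109.7 and 117 TPM under JM03. *rpn-6.2* had 25.2, 32.0 and 12.2 TPM across controls and 21.9, 22.5 and 18.4 TPM under JM03. *rpn-6.2* was the lowest of the 33 genes in each library, and its 3 JM03 values lay below control replicates 1 and 2 but above control replicate 3. Whether the counting split reads between the pair was not tested.

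Core particle genes were listed at higher levels per length than regulatory particle genes. Over the 5 libraries the gene means ran from 159 to 389 TPM with a median of 217 TPM in the core particle, and from 24.0 to 242 TPM with a median of 166 TPM in the regulatory particle. Of the 14 core genes, 13 lay above the regulatory median and 5 above every regulatory gene. The mean log2(TPM + 1) of core genes exceeded that of regulatory genes by 0.59, 0.46 and 0.82 in control replicates 1, 2 and 3 and by 0.65, 0.57 and 0.66 in JM03 replicates 1, 2 and 3. The regulatory mean includes *rpn-6.2*, at 12.2 to 32.0 TPM, which lowers it, and the difference was not computed without that gene. Averaged over the 5 libraries, the regulatory median was 168 TPM without *rpn-6.2* and 166 TPM with it. JM03 replicate 2 lay between control replicates 1 and 2, so the groups overlapped in this difference.

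Summed over the 33 genes, proteasome transcripts made up 0.644%, 0.634% and 0.394% of the TPM across controls and 0.662%, 0.614% and 0.670% in JM03. The means were 0.558 ± 0.142% in control and 0.649 ± 0.030% in JM03 (SD, n = 3 each), with JM03 replicate 2 below control replicates 1 and 2. Without control replicate 3 the JM03 share was 1.02 times the control share, and it was 1.04 times for the core particle and 0.986 times for the regulatory particle. The beta ring share was 1.07 times that of control there, with JM03 replicate 2, at 0.144%, between control replicates 1 and 2, at 0.152% and 0.140%.

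**Figure D2:**
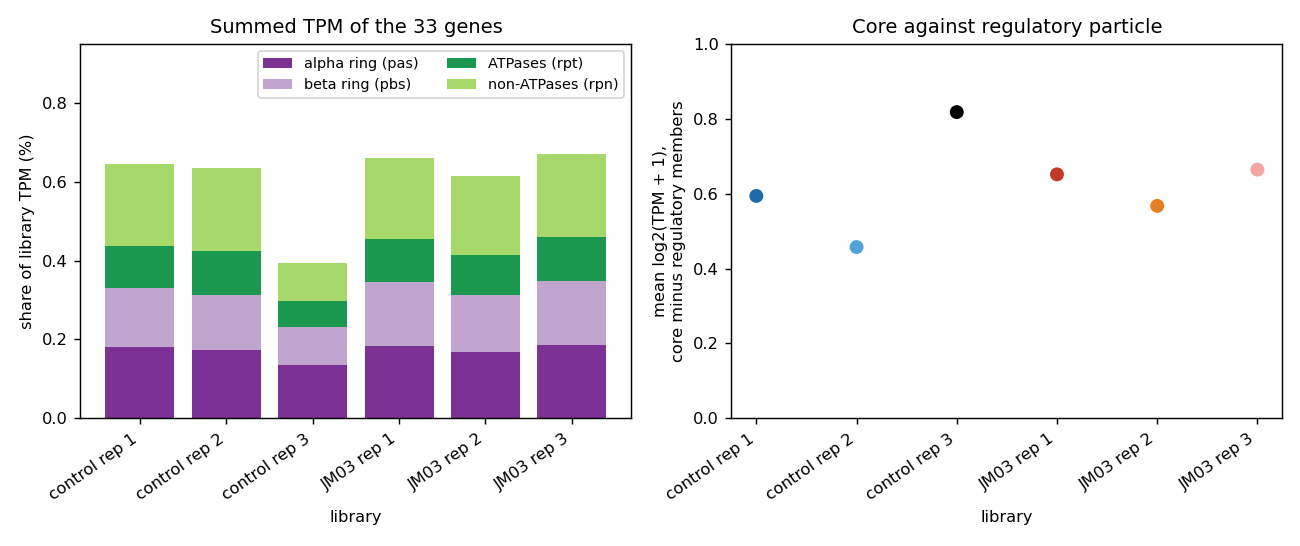
Left, summed TPM of the proteasome genes as a share of each library's TPM (%), stacked by subunit class. Right, mean log2(TPM + 1) of the core genes minus that of the regulatory genes, *rpn-6.2* included, in each library, with 1 point for a library. Control replicate 3 has the smallest share (0.394%) and the largest core excess (0.82), while the other 5 libraries lie between 0.614% and 0.670% and between 0.46 and 0.66.

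The comparison of JM03 with control asked whether proteasome gene expression differed in the treated animals. None of the 33 genes passed a Benjamini-Hochberg adjusted p of 0.05 in limma, where 0.132% of the 12912 tested genes did. The adjusted p of the 33 genes ran from 0.490 to 0.948 (limma). None had an unadjusted p below 0.05 in either direction, against 4.21% of all tested genes in the higher and 7.54% in the lower direction. In 2 of the 33, *pbs-4* and the ubiquitin receptor gene *rpn-13*, every JM03 library lay above every control, a pattern that 21.9% of all tested genes showed. In none did every JM03 library lie below every control, against 9.41% of all tested genes.

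With the 6 libraries the log2 fold changes of the 33 genes, JM03 over control on the log2(TPM + 1) scale, ran from -0.22 (*pas-3*) to 0.79 (*rpn-9*). The core particle median was 0.30 and the regulatory particle median 0.29, while the median over all tested genes was 0.35. Relative to all genes these medians were -0.049 and -0.057. A positive fold change was seen in 30 of the 33 genes and in 72.7% of all tested genes.

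The genes with the largest fold changes were also those furthest below the other libraries in control replicate 3. *rpn-9* had a log2 fold change of 0.79 ± 0.614 (SE; limma adjusted p = 0.497). That of *pas-1* was 0.77 ± 0.601 (limma adjusted p = 0.498), that of *pbs-5* 0.73 ± 0.529 (limma adjusted p = 0.492) and that of *rpn-13* 0.72 ± 0.520 (limma adjusted p = 0.492). Without control replicate 3 these 4 values were 0.030, 0.031, 0.099 and 0.10, so 1 control library set their size. In *rpn-13*, the controls had 149.5, 143 and 39.5 TPM and the JM03 libraries 157, 149.6 and 165 TPM. In *pbs-4*, the controls had 181, 180.1 and 169 TPM and the JM03 libraries 209, 182 and 198 TPM. In both genes JM03 replicate 2 was the closest of the JM03 libraries to the controls. It had 149.57 TPM against 149.54 TPM in control replicate 1 for *rpn-13*, and 182.21 TPM against 180.82 TPM for *pbs-4*. With values rescaled to protein-coding genes, *pbs-4* no longer had every JM03 library above every control. There 1 of the 33 genes did, a regulatory particle gene.

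Without control replicate 3 the proteasome genes were close to level between the groups. The log2 fold changes ran from -0.43 (*rpn-6.2*) to 0.16 (*pas-2*), and the SE was smaller for all 33 genes, at 0.0679 to 0.155. The 95% confidence interval of the log2 fold change lay wholly within 0.5 of 0 for 32 of the 33 genes, the exception being *rpn-6.2*. With the 6 libraries it did so for 0 of them. Control replicate 3 was set aside in part because it departed from the other libraries over these same genes. A smaller SE without it was therefore built into that choice. Its removal also leaves fewer control than JM03 libraries. The interval counts thus cannot show whether expression was unchanged. The core median was 0.070 and the regulatory median -0.0048, against 0.046 for all tested genes. Of the core genes 11 of 14 were positive, including all 7 beta genes, and of the regulatory genes 9 of 19, against 56.5% of all tested genes.

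Again none of the 33 genes was called without control replicate 3, where 0.132% of all tested genes were (limma adjusted p of 0.238 to 0.984). At an unadjusted p below 0.05, 0 genes were higher, against 8.41% of all tested genes, and 1 was lower, against 11.1%. Every JM03 value lay above control replicates 1 and 2 in *pbs-4* and *rpn-13*, against 23.7% of all tested genes. Every JM03 value lay below them in *rpn-2*, *rpn-3*, *rpn-6.2* and *rpn-8*, against 18.5% of all tested genes. These 4 are among the 19 regulatory particle genes, a share near that of all tested genes. The log2 fold changes of *rpn-2*, *rpn-3* and *rpn-8* were -0.10, -0.10 and -0.16 (limma adjusted p = 0.453, 0.448 and 0.293).

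**Figure D3:**
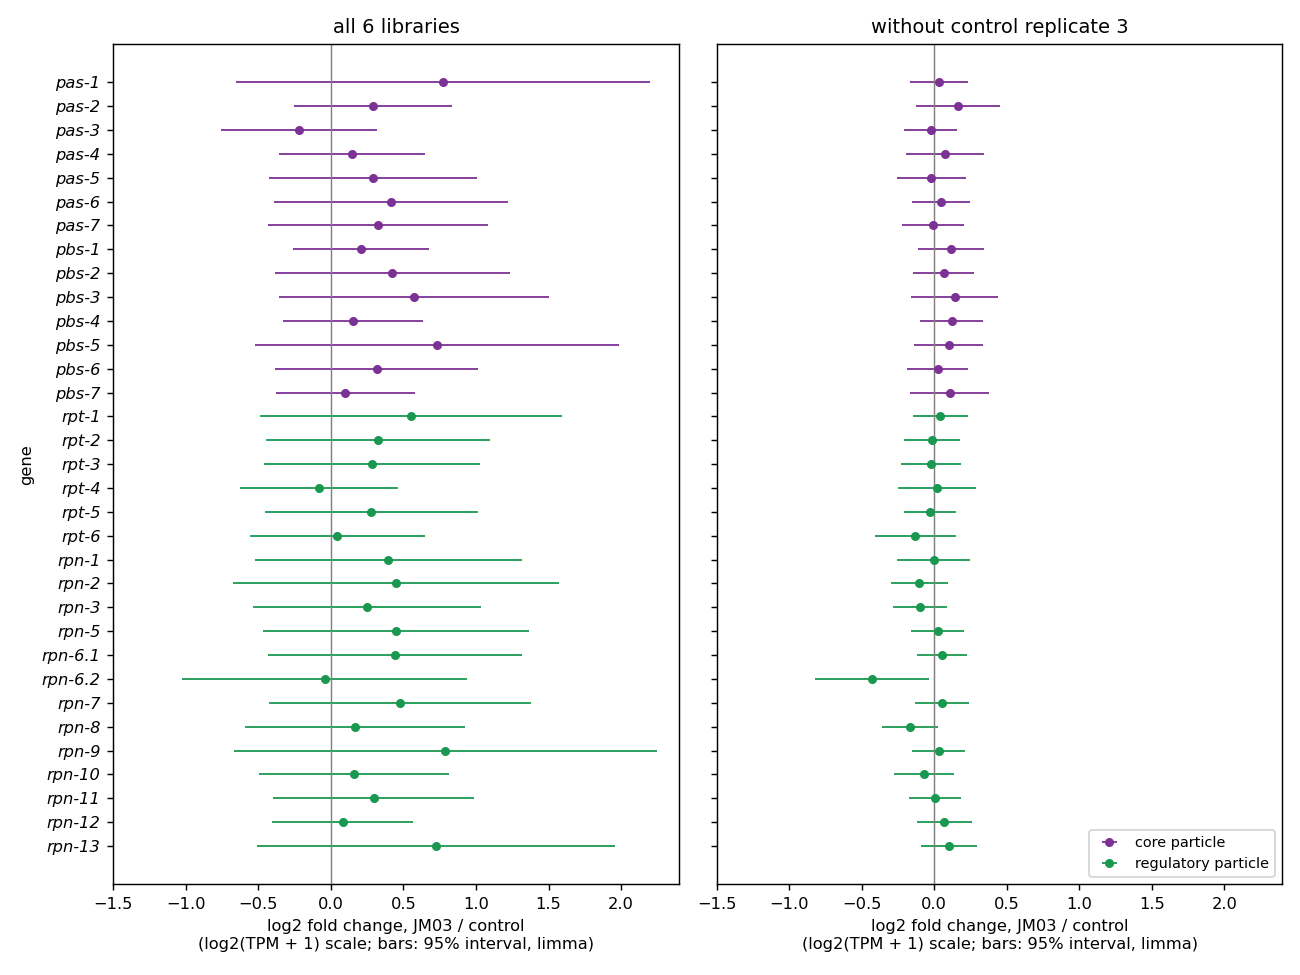
Log2 fold change of JM03 over control for each of the 33 proteasome genes on the log2(TPM + 1) scale, with 95% confidence intervals from limma, with all 6 libraries (left) and without control replicate 3 (right). The intervals span 0 for every gene on the left, and on the right for every gene but *rpn-6.2*, whose interval ends at -0.037 before adjustment for the number of genes tested.

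The core genes shared an order of the libraries within each group. All 14 had a lower value in control replicate 2 than in control replicate 1, and all 14 had their lowest JM03 value in replicate 2. The gap between these controls was near 0 in some genes, at 392.93 and 392.56 TPM in *pas-3* and 197.67 and 197.43 TPM in *pas-1*. It was wider in others, such as *pas-2* at 212 and 183 TPM. Of all tested genes 48.9% showed the first pattern and 32.4% the second. In the regulatory particle 7 of 19 genes showed the first and 14 of 19 the second. The core genes share these libraries, so the 14 are not independent observations. Both patterns were also seen in the summed oocyte, germ line, intestine, body wall muscle and epidermis markers described below. The oocyte sum was 7554 and 5967 TPM in control replicates 1 and 2 and 9325, 7978 and 8967 TPM under JM03. In the neuron and sperm marker sums control replicate 2 lay above control replicate 1. The part of library makeup in the order of the core genes was not tested.

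Control replicate 3 was the lowest of the 6 libraries for 12 of the 14 core genes and 17 of the 19 regulatory genes, as it was for 64.7% of all tested genes. The size of the gap varied widely between subunits of the same ring. Its value was 21.1% of the mean of control replicates 1 and 2 for *pas-1* but 150.2% for *pas-3*. In the beta ring it was 26.4% for *pbs-5* and 101% for *pbs-7*, in the ATPases 34.2% for *rpt-1* and 123% for *rpt-4*, and in the non-ATPases 20.2% for *rpn-9* and 97.6% for *rpn-12*. The alpha genes, whose highest level was 1.85 to 2.15 times their lowest in the other 5 libraries, spanned 14.2 times in control replicate 3. The coefficient of variation among the 14 core genes was 82.8% there, against 23.5% to 29.3% in the other libraries.

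Long transcripts were low in control replicate 3 among proteasome genes as among all genes. Across the 33 genes, the log2 ratio of control replicate 3 to the mean of control replicates 1 and 2 had a Spearman correlation of -0.50 with the length of the longest annotated transcript. It was -0.56 across the 12895 tested genes with a length. With the length of the annotated 3' untranslated region the Spearman correlation was -0.62 across the 33 genes. Across the 11642 tested genes with such a region it was -0.58. The length correction given below used transcript length alone. Core transcripts are 801 to 1059 nt long and regulatory transcripts 855 to 3171 nt. The median log2 ratio was -0.90 in the core particle and -1.04 in the regulatory particle.

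Proteasome genes of like length also differed from each other in control replicate 3. Tested genes of 500 to 1000 nt had a median log2 ratio of -0.30 there, while *pas-1*, at 946 nt, had -2.22 and *pas-3*, at 893 nt, had 0.59. For genes of 1000 to 1500 nt the median was -0.75, while *rpn-9*, at 1325 nt, had -2.28, *pbs-5*, at 1059 nt, had -1.90 and *rpt-4*, at 1461 nt, had 0.30. The *rpt-4* gene (WBGene00004504, II:42207 to 46216 in WBcel235) overlaps *nfyc-1* and *rpoa-49* on the other strand, as 8 of the 33 genes overlap a gene of at least 1 TPM there. The sources used here do not say whether counting used strand, so reads of such pairs cannot be told apart. *nfyc-1* and *rpoa-49* were lower in control replicate 3 than in every other library, at 35.6 and 29.1 TPM. The 8 genes include *pbs-4* and *rpn-10*, and *pbs-7* overlaps *K07A12.5*, of up to 14.9 TPM, on its own strand. The part of overlap in the values of *rpt-4* and these genes was not tested. No other annotated gene overlaps *pas-3* (WBGene00003924, I:5105110 to 5106048).

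When the transcript length trend of each library was removed, the core median log2 fold change was 0.14 and the regulatory median -0.069, so their difference was 0.21 with all 6 libraries, against 0.0084 before. Without control replicate 3 and with no such correction the difference was 0.075. No proteasome gene was called after the correction (limma adjusted p of 0.332 to 0.985), where 0.0929% of all tested genes were. At an unadjusted p below 0.05 there were 0 in either direction, against 4.96% of all tested genes in the higher and 11.5% in the lower.

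**Figure D4:**
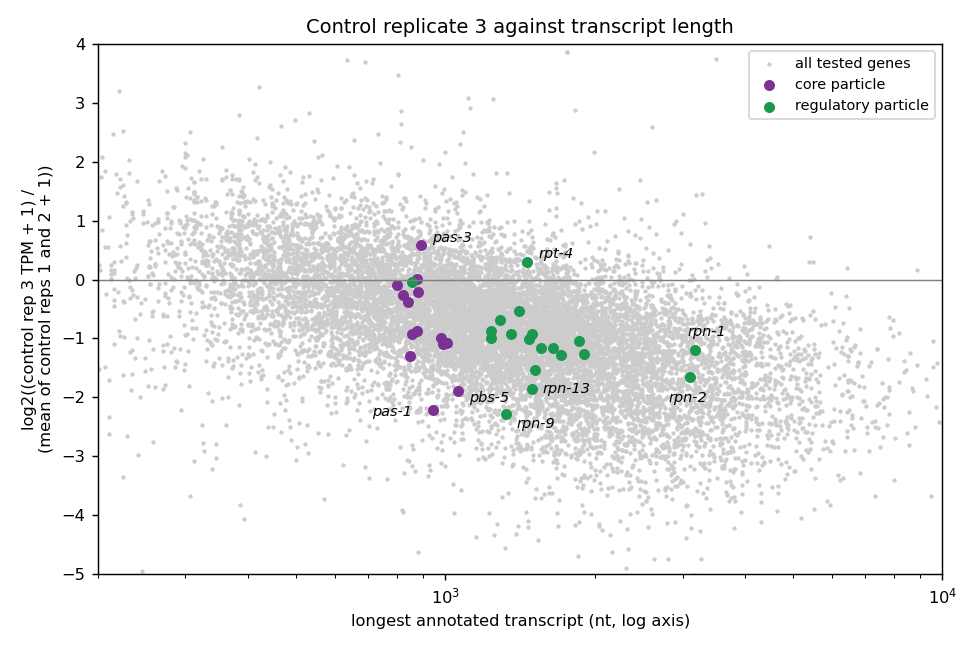
Log2 ratio of control replicate 3 to the mean of control replicates 1 and 2, on the log2(TPM + 1) scale, against the length of the longest annotated transcript (nt, log axis), for the tested genes with a length (grey, of which 206 lie outside the axes) and the core and regulatory particle genes. Among proteasome genes *pas-1*, *rpn-9*, *pbs-5* and *rpn-13* lie lowest, and *pas-3* and *rpt-4* highest.

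*rpn-6.2* (WBGene00010309, III:8999817 to 9001999 in WBcel235) was the proteasome gene with the lowest log2 fold change without control replicate 3, at -0.43 ± 0.155 (SE; limma unadjusted p = 0.037, adjusted p = 0.238). With the 6 libraries it was -0.044 ± 0.413 (limma adjusted p = 0.948), with control replicate 3 the lowest of all. Its paralog *rpn-6.1* (WBGene00004462, III:6959110 to 6962001) had a log2 fold change of 0.054 ± 0.0679 without control replicate 3 (limma adjusted p = 0.644) and 0.44 ± 0.370 with the 6 libraries (limma adjusted p = 0.505).

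The summed level of 10 sperm marker genes was 1282, 1974 and 2571 TPM across controls and 560, 896 and 446 TPM under JM03, and 0 of the 9 tested ones had a positive log2 fold change. In the 5 libraries other than control replicate 3, *rpn-6.2* and the sperm marker sum had the same order, from JM03 replicate 3 at the bottom to control replicate 2 at the top. In control replicate 3 the sum was highest and *rpn-6.2* lowest. No other proteasome gene had that order of 5 libraries, which 10.5% of all tested genes had. The part of the sperm markers in the *rpn-6.2* values was not tested.

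**Figure D5:**
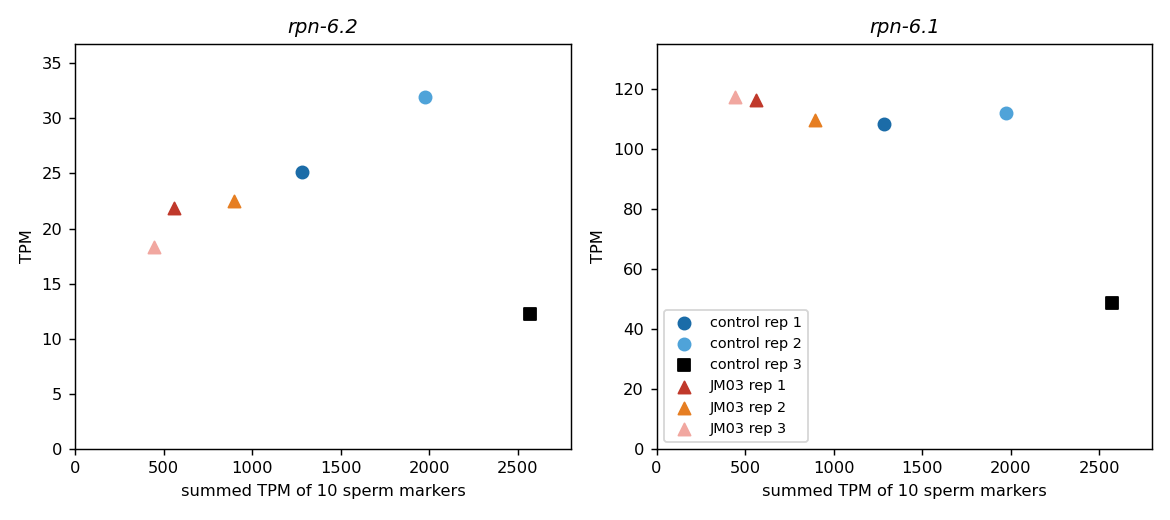
TPM of *rpn-6.2* (left) and *rpn-6.1* (right) against the summed TPM of 10 sperm marker genes, with 1 point for each of the 6 libraries. Apart from control replicate 3, *rpn-6.2* goes from 18.4 to 32.0 TPM as the sum goes from 446 to 1974 TPM, while *rpn-6.1* lies between 108 and 117 TPM.

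Of 10 genes of SKN-1A processing and the bounce-back response, limma called 0, and 0 had an unadjusted p below 0.05. Their median log2 fold change was 0.42 over the 6 libraries and 0.069 without control replicate 3. Every JM03 library lay above every control in 4 of the 10, against 21.9% of all tested genes. *skn-1* itself, whose table row does not separate its forms, had 96.6, 92.8 and 17.6 TPM across controls and 105, 100.5 and 106 TPM under JM03. It is 1 of those 4. The log2 fold change was 0.92 ± 0.645 (SE; limma adjusted p = 0.490), and 0.13 ± 0.065 without control replicate 3 (limma adjusted p = 0.314). The protease gene *ddi-1*, needed to cleave SKN-1A, had 93.9, 88.7 and 31.9 TPM across controls and 102, 94.0 and 98.0 TPM under JM03, and is another of the 4. The ubiquitin ligase gene *sel-11* had 80.7, 81.4 and 17.3 TPM across controls and 94.3, 82.8 and 87.3 TPM under JM03, also among the 4. *cdc-48.1*, which encodes an ATPase that extracts ubiquitinated proteins, had 251, 228 and 81.6 TPM across controls and 257, 222 and 284 TPM under JM03, and its groups overlapped.

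Limma called 0 of the 7 proteasome-associated genes that could be matched, and 0 had an unadjusted p below 0.05. Their median log2 fold change was 0.41, and 0.079 without control replicate 3, where 1 of the 7 was lower at an unadjusted p below 0.05, against 11.1% of all tested genes, and 0 were higher, against 8.41%. With the 6 libraries every JM03 library lay above every control in 2 of the 7, *aip-1* and *usp-14*, against 21.9% of all tested genes. *aip-1*, which encodes a stress-inducible proteasome-binding protein, had 55.7, 44.1 and 14.6 TPM across controls and 59.3, 56.9 and 66.2 TPM under JM03 (log2 fold change 0.85 ± 0.513, limma adjusted p = 0.490, and 0.29 ± 0.127 without control replicate 3, limma adjusted p = 0.281). *rad-23*, a shuttle for ubiquitinated proteins, had 230, 206 and 45.7 TPM across controls and 246, 226 and 250.2 TPM under JM03, and its groups overlapped. The proteasome-bound deubiquitinase gene *usp-14* had 117, 118.99 and 58.7 TPM across controls and 127, 119.76 and 129 TPM under JM03. *dss-1*, a small subunit of the regulatory particle outside the symbol rule, went the other way in control replicate 3, at 266, 311 and 745 TPM across controls and 280.1, 258 and 265 TPM under JM03, and its transcript is 547 nt long. The gene with an unadjusted p below 0.05 was *ubh-4*, a deubiquitinase gene named after its values were seen. It had 106, 107 and 65.1 TPM across controls and 93.1, 86.6 and 96.2 TPM under JM03. Its log2 fold change was 0.022 over the 6 libraries and -0.21 without control replicate 3 (limma adjusted p = 0.962 and 0.233).

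Limma called 0 of the 28 matched genes of ubiquitin and its activation and transfer, and 0 had an unadjusted p below 0.05 with or without control replicate 3. Their median log2 fold change was 0.53 over the 6 libraries and -0.023 without control replicate 3, the lowest library for 27 of the 28. Every JM03 library lay above every control in 5 of the 28, against 21.9% of all tested genes. The polyubiquitin gene *ubq-1* had the smallest p, at 585, 473 and 227 TPM across controls and 662, 595 and 689 TPM under JM03. It is 1 of those 5. The log2 fold change was 0.70 ± 0.358 (SE; limma unadjusted p = 0.091, adjusted p = 0.474), and 0.30 ± 0.126 without control replicate 3 (limma adjusted p = 0.267). The next smallest p values belonged to the ubiquitin-conjugating enzyme genes *ubc-7*, *ubc-3* and *ubc-6*. *ubc-7* had 380.3, 342 and 124 TPM across controls and 427, 369.8 and 408 TPM under JM03, with JM03 replicate 2 below control replicate 1. *ubc-3* had 136, 127 and 22.6 TPM across controls and 151, 144 and 147 TPM under JM03, among the 5 (log2 fold change 1.00 ± 0.670, limma adjusted p = 0.490, and 0.17 ± 0.070 without control replicate 3, limma adjusted p = 0.267). *ubc-6* had 65.7, 67.1 and 8.77 TPM across controls and 77.6, 69.97 and 73.7 TPM under JM03, also among the 5.

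The markers of other cell types give the makeup of the libraries beside these values. Summed over 13 oocyte markers, the controls had 7554, 5967 and 3436 TPM and JM03 7978 to 9325 TPM, and the log2 fold change was positive for each of the 13, also without control replicate 3. The 10 intestine markers summed to 3856 to 9742 TPM in the controls and 8215 to 10994 TPM in JM03, and the 10 body wall muscle markers to 497 to 1025 TPM and 861 to 1623 TPM. The 10 general germ line markers summed to 2311, 2222 and 664 TPM across controls and 2449, 2290 and 2580 TPM under JM03. JM03 replicate 2 lay between control replicates 1 and 2. With the 6 libraries the log2 fold change was positive for 8 of the 10. Without control replicate 3 it was positive for 5 of the 10, with a median of -0.072. The 10 epidermis markers summed to 36.1 to 139.9 TPM in the controls and 134 to 232 TPM in JM03, and the 10 neuron markers to 227 to 417 TPM and 439.5 to 461 TPM. No marker of these lists was at 0 in all 6 libraries, and the part of cell makeup in the proteasome values was not tested.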

How the data were processed

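The authors deposited 1 table of TPM values at 2 decimals for 46778 genes in 6 libraries. The submitters' processing notes list fastp, HISAT, RSEM and WBcel235. The sources used here do not give versions, settings, annotation release or strand use. The unit was taken as TPM from an earlier account of the deposited table. Columns sum to 997816 to 998884. Library groups come from the titles. The log2(TPM + 1) values of 12912 genes that reached 1 TPM in 3 or more libraries were fitted with limma 3.58.1 (R 4.3.3) with a robust mean-dependent prior, adjusted over all tested genes by Benjamini-Hochberg and called below 0.05. Medians and shares over members are descriptions with no test. Members, lists and tests were chosen with earlier results of these data known. Lengths, coordinates and overlaps come from an Ensembl annotation of WBcel235. In the length correction, a lowess (span 0.3) of each library's deviation against log transcript length was subtracted. Values are given in every library for the members of highest and lowest mean or fold change in each class, for the catalytic subunits and for *rpn-1*, *rpn-6.1*, *rpn-6.2* and *rpn-10*, and for up to 4 genes of smallest p in each pathway list. *ecps-1*, *ecps-2*, *pomp-1* and *hectd-1* matched no symbol and were not analysed here. The limma step was tested on simulated data whose spread came from the libraries other than control replicate 3. It was not tested with the wider spread that control replicate 3 brings. Figures used matplotlib 3.10.9 in Python 3.11.15.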

Additional observations from a re-analysis of the deposited data

How the results depend on the processing

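The count of 0 proteasome genes called held under each alternative tried: a pseudocount of 0.1, no filter on low values, a filter at 5 TPM, quantile normalization, values rescaled to protein-coding genes, a non-robust prior, the transcript length trend removed, the replicate block, and each library left out. Over all genes 17 were called, 5 to 17 with a library left out (5 without JM03 replicate 1, 6 without JM03 replicate 2, 8 without control replicate 2 and 10 without JM03 replicate 3), and 0 under the replicate block. The median log2 fold change of all genes went from 0.35 to 0.094 with quantile normalization, where the core median was 0.13 and the regulatory median 0.090, and to 0.044 with the length trend removed. Replicate numbers were not treated as a pairing in the main fit. Deviations from the group means correlated at -0.020, 0.079 and -0.15 in same-numbered libraries and at -0.28 to 0.29 in differently numbered ones. The control means include control replicate 3, which stood apart, so these values cannot settle whether the replicates were paired. With the length trend removed, the core minus regulatory median was 0.21, against 0.0084. With each library left out it ran from -0.026 to 0.075, the core median from 0.070 to 0.47, the regulatory median from -0.0048 to 0.45, and the JM03 minus control share of TPM from 0.00945 to 0.135 percentage points. Uncalled log2 fold changes turned sign with quantile normalization in 6 of the 33 genes, 12 with the length trend removed and 12 without control replicate 3. Among the 16 genes whose values are given in every library by the rule for named genes, those that turned with quantile normalization were *pbs-7* (-0.029), *rpn-10* (-0.090) and *rpt-6* (-0.17). With the length trend removed they were *pbs-7* (-0.057), *rpn-1* (-0.19), *rpn-10* (-0.15), *rpt-2* (-0.052) and *rpt-6* (-0.31). With a library left out 13 of the 33 genes turned sign, and among the 16 the ranges that crossed 0 were -0.0048 to 0.62 in *rpn-1*, -0.068 to 0.30 in *rpn-10*, -0.43 to 0.23 in *rpn-6.2*, -0.014 to 0.52 in *rpt-2*, -0.14 to 0.019 in *rpt-4* and -0.13 to 0.19 in *rpt-6*. The depth behind TPM is unknown, so no counting error is given.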
